A study of Mus musculus with 6 samples.

Results

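Solute carriers are membrane proteins that move amino acids, nucleosides, metals, metabolites and ions across the plasma membrane and the membranes of organelles, and their genes carry Slc symbols numbered by family. The genes described here were the rows of the deposited table whose gene number mapped to a mouse symbol starting with Slc and a digit, leaving out the glucose transporter genes Slc2a1 and Slc2a3. The rule gave 133 of the 8520 genes in the table, from 43 families. They were sorted by the substrate of each family, or for some by that of the gene itself, as with Slc43a2 and Slc43a3. This gave 15 amino acid and peptide, 4 nucleoside and nucleobase, 20 metal and 19 ion transporters and 41 others. A further 30 were Slc25 carriers, most of which lie in the mitochondrial inner membrane. The last 4 genes carry an Slc symbol but encode no transporter: the scaffold gene Slc9a3r1, the RNA-processing genes Slc4a1ap and Slc7a6os, and the pseudogene Slc2a4rg-ps.

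RNA was sequenced from natural killer (NK) cells of the spleen of untreated C57BL/6Ncr mice aged 6 to 8 weeks. NK cells are lymphocytes that kill infected and transformed cells, and each carries some of the Ly49 receptors, which bind MHC class I molecules. Cells that were CD3- and NK1.1+ were sorted into Ly49G+ cells, which carried Ly49G and not Ly49C/I, and Ly49I+ cells, which carried Ly49C/I and not Ly49G, with 3 libraries per population. The antibody for Ly49C/I binds both receptors, so the Ly49I+ sort did not separate Ly49I from Ly49C. The series used 20 mice, and the labels do not say how many fed each replicate, so a p-value reflects only how far these 6 libraries spread, which may be technical.

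In lymphocytes, amino acid uptake feeds protein synthesis and the mTORC1 kinase, which senses amino acids at the lysosome. Zinc and iron carriers set the metal supply of enzymes and of mitochondria, and the Slc25 carriers exchange ADP, ATP, phosphate and metabolic acids between the mitochondrial matrix and the cytosol. Sodium, potassium, chloride, bicarbonate and proton carriers set cell volume and pH.

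The library totals ran from 33599679 to 40892154 reads. All 12 NK marker genes examined were in the table, and their summed level was 15552.6 to 15783.2 CPM (counts per 1000000 reads of a library) in Ly49G+ libraries and 16300.4 to 17080.5 CPM in Ly49I+ libraries. By the test described below, 1 of the 12, Eomes, was called higher in Ly49G+ libraries. Tbx21, Prf1 and Gzmb were called lower, and the other 8 were not called. Of 10 T cell markers 5 were in the table, and all 5 were higher in Ly49G+ libraries, with a summed level of 194.2 to 256.2 CPM in Ly49G+ and 103.7 to 115.1 CPM in Ly49I+ libraries. Cd3d, Cd3e and Trac reached the table's lower limit of 10 CPM in Ly49G+ libraries alone, so they could enter only if high there. Cd4, Cd5, Cd6, Cd8a and Cd8b1 were not in the table. Of 12 monocyte and macrophage markers 10 were in the table. All 10 had a lower mean in Ly49G+ libraries, and 9 were called, the exception being Cd68, which was called with the block. Apart from Lyz2 and Cd68, they were under 10 CPM in every Ly49G+ library, so they could enter the table only through Ly49I+ libraries. Adgre1 was not in the table. Their summed level was 32.0, 46.3 and 66.5 CPM in Ly49G+ replicates 1, 2 and 3, against 350.5, 1200.6 and 263.0 CPM in Ly49I+ replicates 1, 2 and 3. Of 8 B cell markers only Cd22 was in the table, and it was higher in Ly49G+ libraries. None of 8 erythroid and 6 neutrophil markers was in the table. The part of these other cells' RNA in the results below was not tested, except where a value without Ly49I+ replicate 2, the library with the most monocyte marker RNA, is given.

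Of the 133 Slc genes, 3 passed the test between Ly49G+ and Ly49I+ cells: the zinc transporter gene Slc39a13 was lower in Ly49G+ cells, and the ADP/ATP carrier gene Slc25a4 and the urea transporter gene Slc14a1 were higher. The test was limma's moderated linear model on log2 CPM, with Benjamini-Hochberg adjustment over all 8520 genes at 0.05. The share called was 2.26% of the Slc genes, against 3.59% of all genes, of which 1.82% were higher and 1.77% lower in Ly49G+. With the replicate number as a block, limma called 11 Slc genes, which is 8.27% of them, against 11.7% of all genes. The block takes same-numbered libraries as pairs, which no label states, so calls made only with it rest on that pairing. Of the 11, 5 were higher and 6 lower in Ly49G+, against 5.69% higher and 5.96% lower among all genes. All 3 genes called without the block were among these 11. By both fits the share called was below that of all genes, but the counts were small, and whether the shares differ was not tested. The fitted difference was under 1.5-fold for 130 of the 133 genes, against 8306 of all 8520 genes, a like share. In these bulk libraries, fewer cells with a transcript and less of it per cell cannot be told apart.

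**Figure D1:**
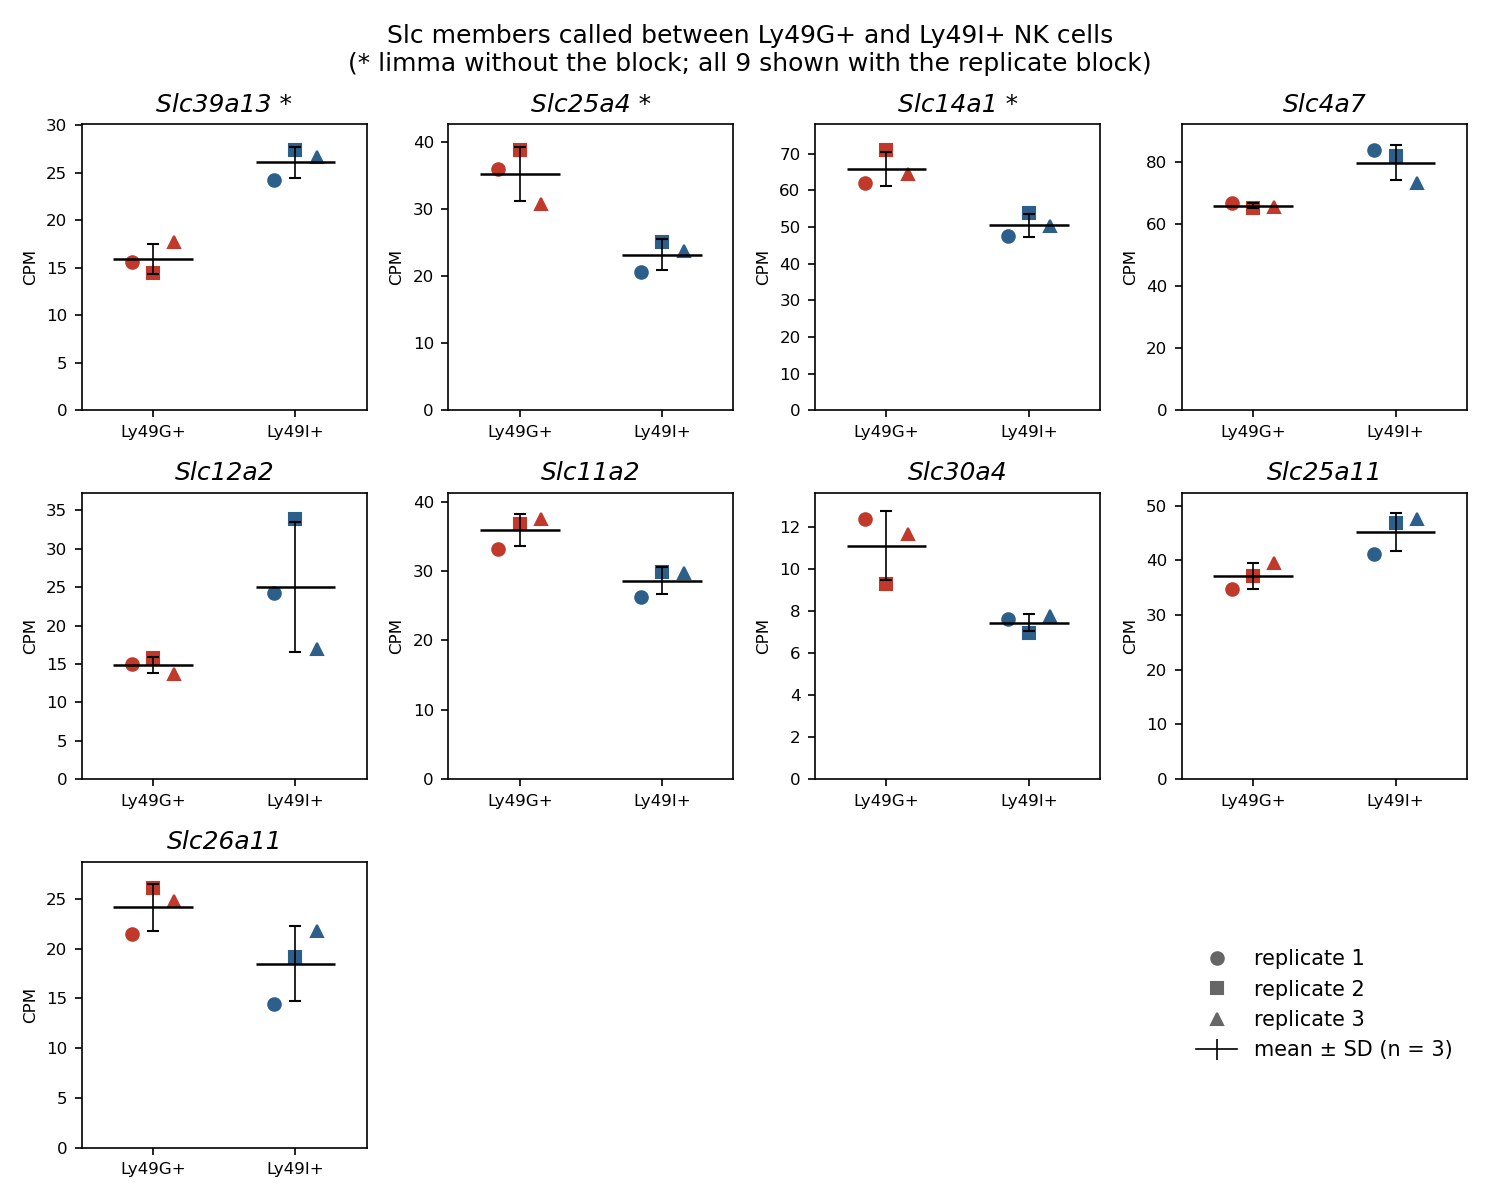
CPM (vertical axes, each starting at 0) of 9 of the 11 Slc genes called by limma with the replicate block, in Ly49G+ (left in each panel) and Ly49I+ libraries, with 1 point per library, marker shape for the replicate number, and bars for mean and SD of 3 libraries. An asterisk marks the 3 genes called without the block; Slc26a11 is the gene among the 9 whose populations overlapped.

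The direction of the small differences was uneven. The mean was lower in Ly49G+ cells for 94 of 133 Slc genes and higher for 39, against 53.5% lower and 46.5% higher among all 8520 genes. The median log2 difference of Ly49G+ minus Ly49I+ was -0.10 over the Slc genes and -0.02 over all genes, and scaling by median of ratios gave -0.09 for the Slc genes. All 3 Ly49G+ libraries lay below all 3 Ly49I+ libraries for 30 Slc genes, which is 22.6% of them, against 13.4% of all genes. The reverse held for 11 Slc genes, which is 8.27%, against 12.5% of all genes. Among these 11, Slc16a1, Slc30a4 and Slc43a3 reached the table's lower limit of 10 CPM in Ly49G+ libraries alone. They could therefore enter the table only if high there. Among the 30, Slc39a3 reached that limit in Ly49I+ libraries alone. Within replicate numbers 1, 2 and 3, taken singly, the Ly49G+ library was the lower for 93, 85 and 81 of the 133 genes. These genes were measured in the same 6 libraries, so they are not independent of each other.

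**Figure D2:**
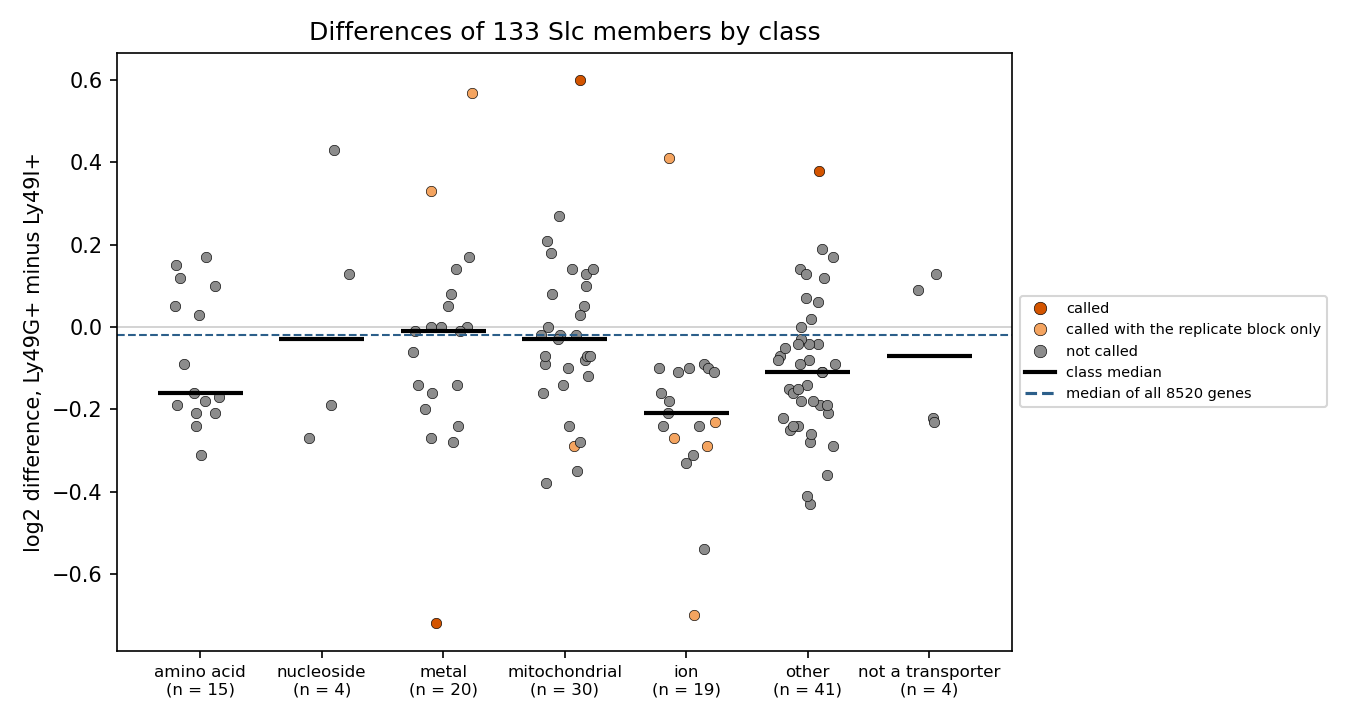
Log2 difference of Ly49G+ minus Ly49I+ (vertical axis) for each of the 133 Slc genes, by class, with the class median as a black bar and the median of all 8520 genes as a dashed line. The ion class has the lowest median, -0.21, with 18 of its 19 genes below 0; the 3 called genes stand at -0.72, 0.60 and 0.38.

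RefSeq promoters, from 250 bases before to 50 bases after the annotated start, were at hand for 100 of the 133 genes. Shown are those of the called zinc carrier gene Slc39a13, the called ADP/ATP carrier gene Slc25a4, and the zinc carrier gene Slc30a4, which was called with the block. They are written 5′ to 3′ on the gene's strand, here the minus strand, in build GRCm38.p6. The sequence of Slc39a13 is chr2:91070266-91070565, that of Slc25a4 chr8:46211013-46211312 and that of Slc30a4 chr2:122702614-122702913. For Slc39a13 the start used lies inside the gene's span, chr2:91061781-91070441, so part of the 250 bases before it is within the gene. Capitals mark matches to the metal response element core in the Slc39a13 and Slc30a4 promoters, and to an ETS factor core in the Slc25a4 promoter.
Slc39a13: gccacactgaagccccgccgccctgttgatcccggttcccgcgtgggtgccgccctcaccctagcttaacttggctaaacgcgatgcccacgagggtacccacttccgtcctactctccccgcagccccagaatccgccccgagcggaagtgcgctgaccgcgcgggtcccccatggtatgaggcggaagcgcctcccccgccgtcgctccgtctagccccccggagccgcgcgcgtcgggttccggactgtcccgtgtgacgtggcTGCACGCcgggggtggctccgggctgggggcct
Slc25a4: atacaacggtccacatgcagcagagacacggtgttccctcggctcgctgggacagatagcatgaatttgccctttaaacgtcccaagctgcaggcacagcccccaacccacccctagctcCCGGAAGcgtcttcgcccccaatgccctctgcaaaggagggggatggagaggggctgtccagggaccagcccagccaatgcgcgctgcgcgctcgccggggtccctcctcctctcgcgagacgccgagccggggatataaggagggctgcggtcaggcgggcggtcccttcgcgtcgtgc
Slc30a4: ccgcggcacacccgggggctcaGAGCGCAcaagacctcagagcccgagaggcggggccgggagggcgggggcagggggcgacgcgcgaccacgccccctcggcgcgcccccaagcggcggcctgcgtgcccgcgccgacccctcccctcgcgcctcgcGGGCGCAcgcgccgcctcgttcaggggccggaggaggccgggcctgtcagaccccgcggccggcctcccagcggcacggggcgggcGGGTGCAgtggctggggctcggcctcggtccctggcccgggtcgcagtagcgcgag

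The metal response element core, TGCACNC or TGCGCNC on either strand, is the letters read by the zinc-sensing factor MTF1, and CCGGAAG on either strand is a core of ETS family sites. The metal core was matched 1 time in the Slc39a13 promoter, 3 times in the Slc30a4 promoter and 2 times, in lower case, in the Slc25a4 promoter. Such matches are common: 25.7% of all RefSeq promoters and 35.8% of promoters of genes in the table hold at least 1, and so did 8 of 17 promoters of the metal transporter genes (47.1%). The ETS core was in 8.86% of all promoters, 20.8% of those of genes in the table and 6 of 29 promoters of Slc25 genes (20.7%). A match describes the letters only.

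None of the 15 amino acid transporter genes passed the test with or without the block. Of them 9 had a lower and 6 a higher mean in Ly49G+ cells, and the median log2 difference was -0.16. Those with the highest CPM, not corrected for length, were Slc38a2 and Slc38a1, which encode sodium-coupled carriers of glutamine and other neutral amino acids, and their relative Slc38a10. Slc38a2 had 230.1, 247.0 and 228.9 CPM in Ly49G+ and 235.7, 222.7 and 232.3 CPM in Ly49I+ libraries, with overlapping populations (log2 difference 0.03 ± 0.07, SE, adjusted p = 0.825 by limma). Slc38a1, which lies 43953 bases from Slc38a2 on chromosome 15, had 186.2, 184.9 and 202.9 CPM in Ly49G+ and 170.4, 176.2 and 169.8 CPM in Ly49I+ libraries. Its Ly49G+ libraries all lay above the Ly49I+ ones, but the difference of 0.15 ± 0.07 did not pass limma's test (adjusted p = 0.262). Slc38a10 had 140.2, 133.9 and 138.2 CPM in Ly49G+ and 146.7, 160.1 and 181.0 CPM in Ly49I+ libraries (-0.24 ± 0.09, limma adjusted p = 0.168).

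Slc3a2 encodes the CD98 heavy chain, which pairs with a light chain to form a transporter of large neutral or cationic amino acids. It had 99.5, 102.6 and 101.5 CPM in Ly49G+ and 101.9, 112.2 and 125.7 CPM in Ly49I+ libraries (-0.16 ± 0.09, limma adjusted p = 0.329). Of the light chain genes only Slc7a6 was analysed here, with 22.2, 23.4 and 27.7 CPM in Ly49G+ and 20.7, 23.0 and 24.4 CPM in Ly49I+ libraries (0.10 ± 0.12, adjusted p = 0.648). The populations overlapped for both genes of this pair. The largest difference in the class was that of Slc43a2, which encodes a sodium-independent carrier of branched-chain and aromatic amino acids. Slc43a2 had 42.0, 40.2 and 43.5 CPM in Ly49G+ and 47.8, 62.6 and 47.1 CPM in Ly49I+ libraries, without overlap and without passing limma's test (-0.31 ± 0.11, adjusted p = 0.173). Slc43a2 was highest in Ly49I+ replicate 2, the library with the most monocyte marker RNA, and without that library the difference was -0.18.

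The glutamine carrier gene Slc1a5 averaged 71.1 ± 5.37 CPM in Ly49G+ and 80.4 ± 8.98 CPM in Ly49I+ cells (SD, n = 3 each), and the taurine carrier gene Slc6a6 averaged 93.3 ± 5.06 CPM in Ly49G+ and 108.3 ± 8.93 CPM in Ly49I+ cells. The cationic amino acid carrier gene Slc7a1 averaged 62.8 ± 4.28 CPM in Ly49G+ and 56.1 ± 4.74 CPM in Ly49I+ cells. Of the lysosomal members, Slc36a1, a proton-coupled carrier gene, averaged 56.2 ± 2.4 CPM in Ly49G+ and 63.7 ± 2.39 CPM in Ly49I+ cells. Slc38a9, whose product reports lysosomal arginine to mTORC1, averaged 32.6 ± 3.27 CPM in Ly49G+ and 37.3 ± 4.35 CPM in Ly49I+ cells. None of these 5 differences passed the test.

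Among genes that act with the amino acid carriers, 30 of 34 listed for amino acid sensing and mTORC1 were in the table, with 0 called, and their median log2 difference was -0.11. With the replicate block 3 of the 30 were called, all lower in Ly49G+, against 11.7% of all genes in either direction. They included Fnip2 (-0.50) and Tsc2 (-0.25), which encode a folliculin partner and a TSC subunit, both regulators of mTORC1. Of 23 genes listed for the response to amino acid shortage, 13 were in the table, 0 were called with or without the block, and the median was -0.02.

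None of the 4 nucleoside and nucleobase transporter genes was called with or without the block. Slc28a2, the gene of a sodium-coupled purine nucleoside carrier, was the most abundant of them. It had 115.9, 106.9 and 106.9 CPM in Ly49G+ and 117.9, 91.0 and 94.8 CPM in Ly49I+ libraries (0.13 ± 0.10, limma adjusted p = 0.497). Of its transcript, 18% of the 100-base windows also occur in Gm14085, so the reads of these genes may be mixed. The plasma membrane equilibrative carrier gene Slc29a1 had 16.6, 16.6 and 20.7 CPM in Ly49G+ and 17.7, 24.6 and 23.2 CPM in Ly49I+ libraries (-0.27 ± 0.15, limma adjusted p = 0.332). The lysosomal carrier gene Slc29a3 had 22.3, 26.4 and 24.0 CPM in Ly49G+ and 27.0, 31.7 and 24.6 CPM in Ly49I+ libraries (-0.19 ± 0.12, limma adjusted p = 0.391). The populations overlapped for all 3 of these genes.

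Slc43a3, the gene of a purine nucleobase carrier, reached the table's lower limit of 10 CPM in Ly49G+ libraries alone, so it could enter the table only if it was high there. It had 11.0, 12.6 and 13.2 CPM in Ly49G+ and 9.02, 9.21 and 9.06 CPM in Ly49I+ libraries, without overlap (0.43 ± 0.15, limma adjusted p = 0.156). Of 25 genes listed for handling nucleosides, 18 were in the table and 1 was called, against 3.59% of all genes. That gene, Entpd1, encodes CD39, an ectoenzyme that breaks down extracellular ATP. Entpd1 was lower in Ly49G+ cells, with 76.0, 62.8 and 55.7 CPM in Ly49G+ and 123.3, 111.2 and 122.0 CPM in Ly49I+ libraries (-0.88 ± 0.11, limma adjusted p = 0.00208). Without Ly49I+ replicate 2 the Entpd1 difference was -0.93.

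Of the 20 metal transporter genes 1 was called without the block, against 3.59% of all genes. Slc39a13, which lies at chr2:91061781-91070441 on the minus strand and encodes ZIP13, a zinc transporter of intracellular membranes, was lower in Ly49G+ cells. It had 15.6, 14.5 and 17.7 CPM in Ly49G+ and 24.3, 27.4 and 26.7 CPM in Ly49I+ libraries. Every Ly49G+ library lay below every Ly49I+ library, and the means were 15.9 ± 1.6 CPM in Ly49G+ and 26.2 ± 1.65 CPM in Ly49I+ cells (SD, n = 3 each). The log2 difference was -0.72 ± 0.12 (SE), with an adjusted p of 0.00784 by limma and 0.00144 with the block. Without Ly49I+ replicate 2 it was -0.68 (limma adjusted p = 0.0391), and without Ly49G+ replicate 2 it was -0.65 and missed the threshold (0.0552). Of its exon bases 215 overlap Psmc3 on the opposite strand, and no label or header says whether the counting used strand.

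The other 19 metal genes missed the test without the block, and the class median was -0.01, with 13 genes lower and 7 higher in Ly49G+. Of the 20 metal genes, 14 belong to the zinc families, where Slc39 products bring zinc into the cytosol and Slc30 products remove it to organelles or outside. Slc30a4, whose product loads zinc into endosomes and vesicles, had 12.4, 9.29 and 11.7 CPM in Ly49G+ and 7.61, 6.98 and 7.75 CPM in Ly49I+ libraries. The populations did not overlap, and Slc30a4 was called higher in Ly49G+ with the block, but it reached the table's lower limit of 10 CPM in Ly49G+ libraries alone, so it could enter the table only if it was high there (0.57 ± 0.18, limma adjusted p = 0.109, and 0.0474 with the block).

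The 3 metal genes with the highest CPM, not corrected for length, were zinc carrier genes, and none was called in either fit. Slc30a7, of the Golgi, had 70.4, 64.3 and 64.5 CPM in Ly49G+ and 72.4, 64.4 and 63.0 CPM in Ly49I+ libraries. Slc39a1, of the plasma membrane, had 51.6, 59.8 and 59.5 CPM in Ly49G+ and 54.1, 62.6 and 55.0 CPM in Ly49I+ libraries (-0.01 ± 0.10, limma adjusted p = 0.973), and 14.8% of its 100-base windows also occur in the pseudogene Slc39a1-ps. Slc39a7, of the endoplasmic reticulum, had 57.9, 56.4 and 58.6 CPM in Ly49G+ and 64.5, 59.5 and 75.0 CPM in Ly49I+ libraries (-0.20 ± 0.10, limma adjusted p = 0.28). For Slc39a7, 68.9% of windows are shared with the overlapping gene Gm20427, so its level is uncertain. The zinc exporter gene Slc30a1, a known target of MTF1, averaged 32.5 ± 1.78 CPM in Ly49G+ and 33.9 ± 1.09 CPM in Ly49I+ cells (SD, n = 3 each).

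Slc11a2 encodes DMT1, which moves iron out of the endosomes where transferrin releases it. It had 33.2, 36.8 and 37.5 CPM in Ly49G+ and 26.3, 29.8 and 29.7 CPM in Ly49I+ libraries, without overlap. It passed with the block and not without it (0.33 ± 0.10, limma adjusted p = 0.103, and 0.0373 with the block). Among 20 measured of 26 listed genes for iron, zinc and copper handling, 0 were called and 2 were called with the block, against 11.7% of all genes. The transferrin receptor gene Tfrc had 25.6, 37.1 and 30.1 CPM in Ly49G+ and 18.9, 23.3 and 19.8 CPM in Ly49I+ libraries (0.57 ± 0.14, limma adjusted p = 0.0591, and 0.00345 with the block). The ferritin light chain gene Ftl1 had 53.9, 65.3 and 62.0 CPM in Ly49G+ and 68.2, 81.5 and 100.6 CPM in Ly49I+ libraries (-0.45 ± 0.13, limma adjusted p = 0.0965, and 0.00502 with the block). Of the mitochondrial iron carrier genes, Slc25a37 averaged 37.8 ± 1.72 CPM in Ly49G+ and 34.6 ± 4.48 CPM in Ly49I+ cells, and Slc25a28 averaged 15.4 ± 2.02 CPM in Ly49G+ and 19.7 ± 3.6 CPM in Ly49I+ cells, neither passing either fit.

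The copper, magnesium and heme carriers showed no called gene. The copper genes Slc31a1 and Slc31a2, which lie 62170 bases apart on chromosome 4, had log2 differences of 0.00 and -0.01. The magnesium carrier genes Slc41a1 and Slc41a2 stood at -0.27 and -0.24, and the heme carrier gene Slc48a1 at -0.14.

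Among the 30 Slc25 genes, Slc25a4 alone was called without the block, against 3.59% of all genes. It lies at chr8:46207168-46211062 on the minus strand and encodes the ADP/ATP translocase known chiefly from heart and muscle. Slc25a4 was higher in Ly49G+ cells, with 36.0, 38.8 and 30.8 CPM in Ly49G+ and 20.6, 25.1 and 23.8 CPM in Ly49I+ libraries. All Ly49G+ libraries lay above all Ly49I+ ones, and the means were 35.2 ± 4.04 CPM in Ly49G+ and 23.2 ± 2.32 CPM in Ly49I+ cells (SD, n = 3 each). The log2 difference was 0.60 ± 0.12, with an adjusted p of 0.02 by limma and 0.00297 with the block. It was 0.66 without Ly49I+ replicate 2 (0.0353), and it missed limma's threshold without Ly49G+ replicate 1 (0.0913) or 2 (0.138).

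Slc25a5, the gene of the ADP/ATP translocase of most dividing cells, was the more abundant of the pair. Per kb of exon its mean over all libraries was 62.6 CPM, against 12.4 CPM for Slc25a4. Slc25a5 had 101.1, 116.7 and 105.3 CPM in Ly49G+ and 94.2, 96.8 and 103.8 CPM in Ly49I+ libraries, with an overlap (0.13 ± 0.08, limma adjusted p = 0.387). Other Gm-named genes share 8.33% of its 100-base windows.

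Over the class the median was -0.03, with 11 genes higher and 19 lower in Ly49G+ cells. Slc25a24, a calcium-regulated carrier of ATP-magnesium and phosphate, had 175.8, 165.7 and 152.0 CPM in Ly49G+ and 185.8, 158.0 and 160.3 CPM in Ly49I+ libraries (-0.03 ± 0.09, limma adjusted p = 0.874). Slc25a46, an outer membrane protein that acts in mitochondrial shape, had 119.0, 118.4 and 107.8 CPM in Ly49G+ and 104.2, 101.1 and 93.3 CPM in Ly49I+ libraries, without overlap (0.21 ± 0.08, limma adjusted p = 0.186). Slc25a11, the oxoglutarate and malate exchanger, had 34.7, 37.1 and 39.5 CPM in Ly49G+ and 41.2, 46.9 and 47.6 CPM in Ly49I+ libraries. It was called lower in Ly49G+ with the block (-0.29 ± 0.10, limma adjusted p = 0.136, and 0.0477 with the block).

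Slc25a38, a mitochondrial glycine carrier used in heme synthesis, had 11.3, 15.2 and 10.1 CPM in Ly49G+ and 14.0, 15.1 and 18.0 CPM in Ly49I+ libraries, with an overlap (-0.38 ± 0.18, limma adjusted p = 0.262). The phosphate carrier gene Slc25a3 averaged 76.0 ± 8.43 CPM in Ly49G+ and 71.8 ± 6.75 CPM in Ly49I+ cells. The aspartate and glutamate exchanger gene Slc25a12 averaged 76.3 ± 7.37 CPM in Ly49G+ and 77.4 ± 5.47 CPM in Ly49I+ cells, and the citrate carrier gene Slc25a1 averaged 22.9 ± 1.85 CPM in Ly49G+ and 23.2 ± 4.49 CPM in Ly49I+ cells. The NAD carrier gene Slc25a51 averaged 77.3 ± 5.27 CPM in Ly49G+ and 81.2 ± 4.64 CPM in Ly49I+ cells. None of these differences passed either fit. Slc25a17, a peroxisomal member of the family, stood at -0.02.

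Of 23 genes listed for mitochondrial pores, import and the pyruvate carrier, 19 were in the table and 0 were called. With the block 4 of the 19 were called, against 11.7% of all genes: the serine carrier gene Sfxn1 (0.33) and the import receptor gene Tomm70a (0.24) were higher in Ly49G+, and Sfxn3 (-0.29) and the outer membrane protein gene Tspo (-0.57) were lower. The list's median was 0.00.

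The ion transporters were the class with the most one-sided differences, none of them called without the block. The mean was lower in Ly49G+ cells for 18 of 19 genes, against 70.7% of all Slc genes and 53.5% of all genes, and the class median was -0.21. All Ly49G+ libraries lay below all Ly49I+ libraries for 11 of the 19, against 13.4% of all genes, and the reverse held for 0, against 12.5% of all genes. Summed over the class the level was 1433.7, 1425.9 and 1434.8 CPM in Ly49G+ and 1644.0, 1614.2 and 1601.0 CPM in Ly49I+ libraries. The share of 18 in 19 held without each library in turn, with class medians between -0.23 and -0.18. Within replicate numbers 1, 2 and 3, taken singly, 17, 18 and 16 of the 19 were lower in the Ly49G+ library. With the block 5 of the 19 genes were called, 4 lower and 1 higher in Ly49G+, against 11.7% of all genes in either direction.

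**Figure D3:**
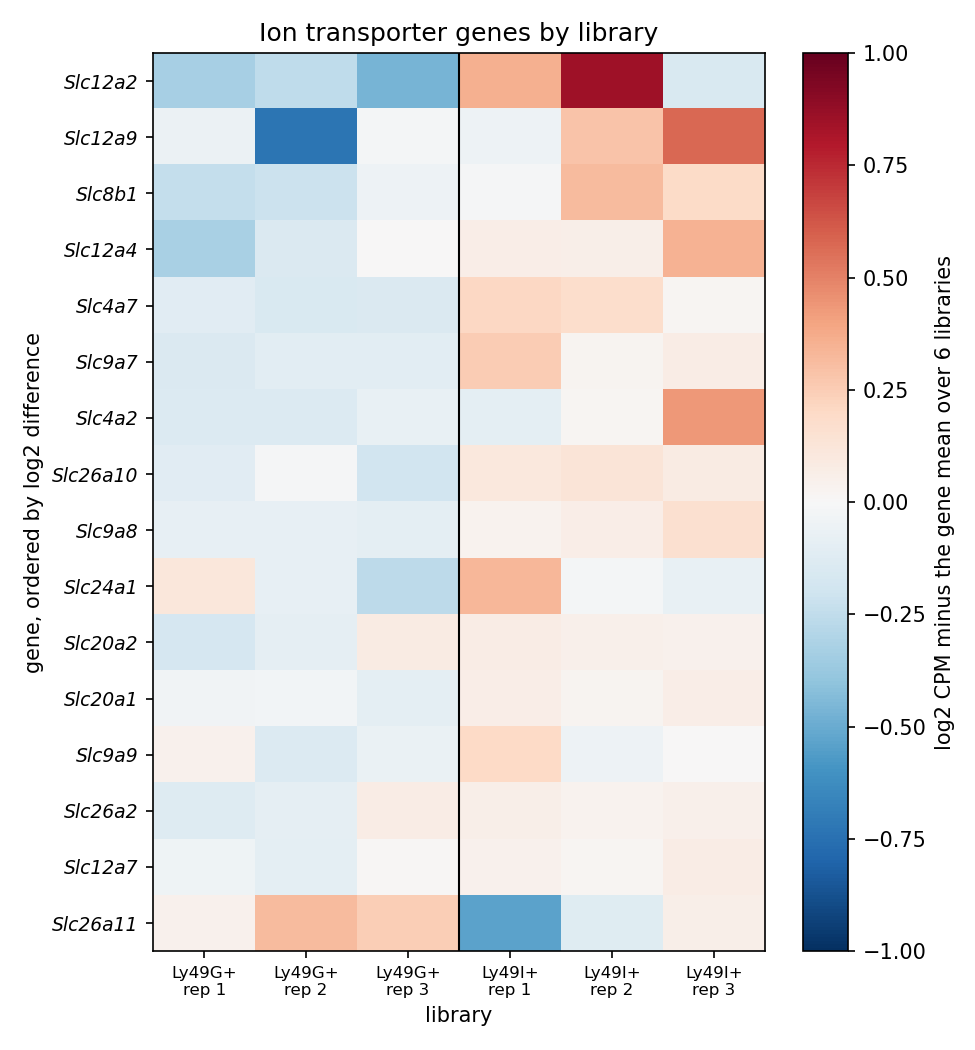
Log2 CPM minus the gene's mean over the 6 libraries (colour, from -1 in blue to 1 in red) for 16 of the 19 ion transporter genes (rows, ordered by log2 difference) in the 3 Ly49G+ libraries (left) and the 3 Ly49I+ libraries. Blue fills most of the Ly49G+ side and red most of the Ly49I+ side except in the lowest row, Slc26a11, and Slc12a2 reaches its highest value in Ly49I+ replicate 2.

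The Slc12 genes encode carriers that couple chloride to sodium or potassium and set cell volume, and all 5 measured were lower in Ly49G+ cells, with a median of -0.31. Slc12a2 encodes NKCC1, which imports sodium, potassium and chloride. It had 15.0, 15.8 and 13.7 CPM in Ly49G+ and 24.2, 33.9 and 17.0 CPM in Ly49I+ libraries. The populations did not overlap, but the Ly49I+ libraries were far apart, and their order from high to low was that of the summed monocyte markers. How many other genes share this order was not counted. The log2 difference was -0.70 ± 0.21 (limma adjusted p = 0.0998, and 0.00709 with the block), and without Ly49I+ replicate 2 it was -0.46 (0.252).

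Slc12a7, which encodes a potassium and chloride exporter, had 204.8, 197.0 and 213.1 CPM in Ly49G+ and 217.3, 213.9 and 222.3 CPM in Ly49I+ libraries, without overlap (-0.09 ± 0.07, limma adjusted p = 0.479). Another exporter gene, Slc12a4, stood at -0.31 ± 0.13 and Slc12a9 at -0.54 ± 0.23, neither called in either fit.

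The Slc9 genes encode sodium and proton exchangers, and all 5 measured were lower in Ly49G+ cells, with a median of -0.18. The endosomal and Golgi members Slc9a7, Slc9a8 and Slc9a9 stood at -0.24, -0.18 and -0.10. Slc9a9 was the most abundant of the family, at 152.8 ± 9.62 CPM in Ly49G+ and 164.4 ± 15.4 CPM in Ly49I+ cells (SD, n = 3 each).

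Slc4a7, which imports sodium with bicarbonate, had 66.9, 65.3 and 65.7 CPM in Ly49G+ and 83.9, 82.1 and 73.4 CPM in Ly49I+ libraries. It was called lower in Ly49G+ with the block (-0.27 ± 0.08, limma adjusted p = 0.0968, and 0.0373 with the block). The chloride and bicarbonate exchanger gene Slc4a2 averaged 47.3 ± 1.25 CPM in Ly49G+ and 56.5 ± 11.2 CPM in Ly49I+ cells, where replicate 3 stood high at 69.2 CPM. The phosphate importer gene Slc20a1 had 253.8, 254.9 and 243.2 CPM in Ly49G+ and 272.7, 264.2 and 271.4 CPM in Ly49I+ libraries, without overlap (-0.10 ± 0.07, limma adjusted p = 0.385). Slc8b1, the mitochondrial sodium and calcium exchanger gene, averaged 22.6 ± 1.67 CPM in Ly49G+ and 28.6 ± 3.23 CPM in Ly49I+ cells (-0.33 ± 0.12, limma adjusted p = 0.152).

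Slc26a11, of the sulfate and anion exchanger family, was the exception with a higher mean in Ly49G+ cells. It had 21.5, 26.1 and 24.8 CPM in Ly49G+ and 14.4, 19.2 and 21.8 CPM in Ly49I+ libraries. The highest Ly49I+ library was above the lowest Ly49G+ one, and the gene was called only with the block (0.41 ± 0.16, limma adjusted p = 0.196, and 0.0411 with the block).

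Of 24 genes listed as ion pumps, channels and volume regulators, 21 were in the table and 3 were called, 2 higher and 1 lower in Ly49G+, against 3.59% of all genes in either direction. The potassium channel gene Kcnk5 was higher in Ly49G+ cells, with 38.2, 39.8 and 44.7 CPM in Ly49G+ and 27.4, 30.6 and 31.4 CPM in Ly49I+ libraries (0.46 ± 0.10, limma adjusted p = 0.033). Its call was lost without the intensity trend (0.0501) and without any Ly49G+ library or Ly49I+ replicate 2 (0.0679 to 0.138). The proton channel gene Hvcn1 was also higher in Ly49G+ cells, with 61.9, 66.3 and 75.3 CPM in Ly49G+ and 34.8, 48.8 and 51.7 CPM in Ly49I+ libraries (0.60 ± 0.14, limma adjusted p = 0.0455). Its call was lost without any Ly49G+ library or Ly49I+ replicate 2 (0.0598 to 0.19), without the trend (0.0943) and with precision weights (0.0501). With the block 2 more were called: Stk39, the gene of the SPAK kinase that activates NKCC1 and inhibits the potassium and chloride exporters, was higher in Ly49G+ (0.30), and the lysosomal chloride exchanger gene Clcn7 was lower (-0.36). The list's median was -0.06.

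Among the 41 other transporters, Slc14a1 alone was called, against 3.59% of all genes. It lies at 78100091 to 78142119 on the minus strand of chromosome 18 and encodes the urea transporter of red blood cells and of many other tissues. Slc14a1 was higher in Ly49G+ cells, with 62.1, 71.0 and 64.4 CPM in Ly49G+ and 47.5, 53.8 and 50.3 CPM in Ly49I+ libraries. The populations did not overlap, and the means were 65.8 ± 4.59 CPM in Ly49G+ and 50.6 ± 3.14 CPM in Ly49I+ cells (SD, n = 3 each). The log2 difference was 0.38 ± 0.09, with an adjusted p of 0.0418 by limma and 0.00723 with the block. It missed limma's threshold without any 1 of the 6 libraries, at adjusted p between 0.0525 and 0.213, and without the intensity trend (0.0714). None of the 8 erythroid markers examined was in the table, and whether red blood cell RNA was part of the Slc14a1 level was not tested.

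The remaining 40 were called in neither fit, and the class had 31 genes lower and 10 higher in Ly49G+ cells, with a median of -0.11. Slc44a2, a choline transporter-like gene, had the highest CPM of the Slc genes, not corrected for length, with 371.5, 409.4 and 426.6 CPM in Ly49G+ and 385.3, 480.4 and 438.8 CPM in Ly49I+ libraries (-0.11 ± 0.09, limma adjusted p = 0.529). The 18 Slc35 genes, most of which carry nucleotide sugars into the Golgi and the endoplasmic reticulum for glycosylation, had a median of -0.08, with 13 lower in Ly49G+. Slc35e1 had 118.5, 120.5 and 127.7 CPM in Ly49G+ and 120.6, 128.5 and 127.6 CPM in Ly49I+ libraries (-0.04 ± 0.07, limma adjusted p = 0.781). Slc35e2 averaged 79.2 ± 7.47 CPM in Ly49G+ and 75.5 ± 7.21 CPM in Ly49I+ cells.

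Slc35a2, the UDP-galactose carrier gene, had the largest difference among the uncalled genes of this class. It had 12.6, 9.45 and 12.7 CPM in Ly49G+ and 15.0, 15.1 and 16.4 CPM in Ly49I+ libraries, without overlap (-0.43 ± 0.15, limma adjusted p = 0.16). The CMP-sialic acid carrier gene Slc35a1 averaged 16.9 ± 1.24 CPM in Ly49G+ and 15.5 ± 2.15 CPM in Ly49I+ cells, and the GDP-fucose carrier gene Slc35c1 averaged 68.1 ± 8.49 CPM in Ly49G+ and 72.3 ± 9.05 CPM in Ly49I+ cells. Slc35b2, a carrier of the sulfate donor PAPS, and Slc29a1, 17528 bases away on chromosome 17, stood at -0.25 and -0.27, neither called.

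The lactate carrier gene Slc16a1 was near the table's lower limit, which it reached in Ly49G+ libraries alone, with 9.84, 11.0 and 10.3 CPM in Ly49G+ and 9.28, 9.16 and 9.73 CPM in Ly49I+ libraries (0.14 ± 0.15, limma adjusted p = 0.617). Its product reaches the cell surface with basigin or embigin. The basigin gene Bsg had 95.4, 90.9 and 98.9 CPM in Ly49G+ and 81.4, 85.9 and 100.9 CPM in Ly49I+ libraries (0.09 ± 0.09, limma adjusted p = 0.587). The embigin gene Emb was higher in Ly49G+ cells, with 112.1, 136.0 and 114.1 CPM in Ly49G+ and 64.2, 76.2 and 63.1 CPM in Ly49I+ libraries (0.83 ± 0.10, limma adjusted p = 0.00208). Emb was the 1 gene called among 11 measured of 13 listed chaperones and partners of transporters, against 3.59% of all genes.

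Levels of different genes were compared per kb of exon, as the mean over the 6 libraries. The length was that of all annotated exons of a gene merged, which can exceed that of the transcript the cells use. The scaffold gene Slc9a3r1, which anchors the exchangers of the Slc9 family to the cytoskeleton, was highest at 91.3 CPM per kb. Among transporters Slc25a5 led at 62.6 CPM per kb, followed by Slc25a24 at 48.5, Slc44a2 at 48.3, Slc20a1 at 46.6 and Slc50a1, a sugar transporter gene, at 46.4. The order among Slc25a24, Slc44a2, Slc20a1 and Slc50a1 rests on gaps smaller than the spread of each between libraries. Slc3a2 stood at 30.4 CPM per kb. Of the called genes, Slc14a1 stood at 14.6 CPM per kb, Slc25a4 at 12.4 and Slc39a13 at 4.32, which ranked 24, 30 and 94 of the 133. At the low end were Slc45a4 at 1.57, Slc38a6 at 1.21 and Slc35d1 at 1.1 CPM per kb.

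**Figure D4:**
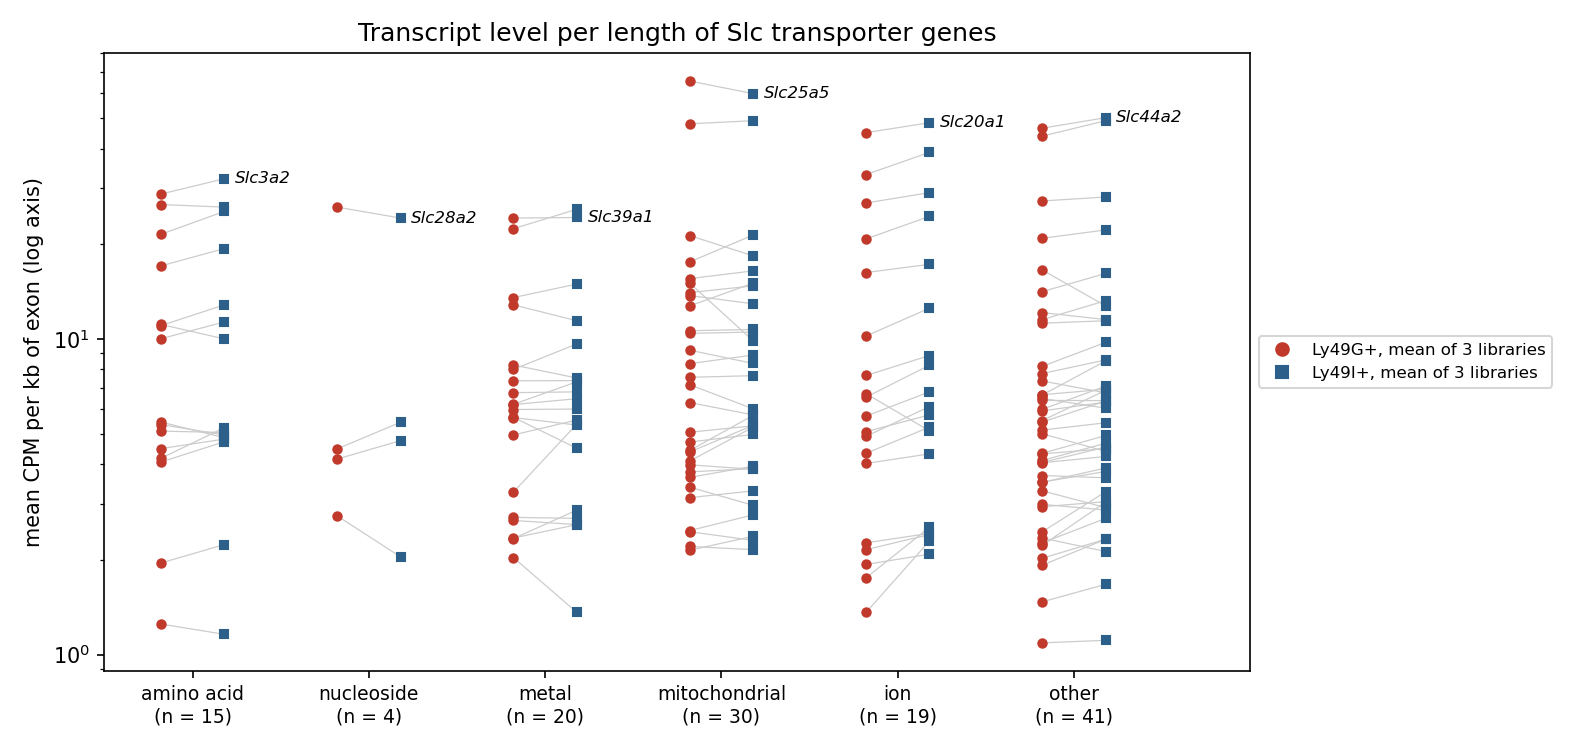
Mean CPM per kb of exon (vertical log axis) of the 129 Slc transporter genes by class in Ly49G+ (red circles, left) and Ly49I+ cells (blue squares, right), each the mean of 3 libraries, with a line joining a gene's values. Most lines are close to level, and the named gene has the highest mean over the 6 libraries in its class.

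Of the 4 genes that encode no transporter, Slc9a3r1 had 150.6, 148.5 and 185.7 CPM in Ly49G+ and 164.0, 194.2 and 211.1 CPM in Ly49I+ libraries, with an overlap (-0.23 ± 0.11, limma adjusted p = 0.282). Slc4a1ap averaged 52.0 ± 1.37 CPM in Ly49G+ and 48.9 ± 0.603 CPM in Ly49I+ cells, and Slc2a4rg-ps averaged 36.1 ± 2.84 CPM in Ly49G+ and 42.1 ± 3.16 CPM in Ly49I+ cells. None of the 4 was called in either fit.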

How the data were processed

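RNA of 3 Ly49G+ and 3 Ly49I+ libraries was used. Per the labels' protocols, NK cells of 20 mice were enriched on magnetic columns, blocked with antibody 2.4G2 and sorted, and 0.4 µg of total RNA per sample went into stranded libraries read as 100-base pairs. The submitters' processing notes name limma, build mm10, STAR 2.3.0 and CASAVA 1.8.2; the counter and the annotation were not given in the sources used here, and neither was the filter on low genes. The authors deposited log2 CPM for 8520 genes, with 0.5 added to each count as in limma's voom. Solving for reads gave whole numbers for 100% of values within 0.001 read. The second-highest CPM of every gene was at least 10, so rarer transcripts were not analysed here; of the Slc genes 3 reached that limit in Ly49G+ libraries alone and 1 in Ly49I+ libraries alone. The smallest count was 8 reads, and genes outside the table held 1.43% to 1.71% of reads. CPM in the text is the deposited value taken out of the log.

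Gene numbers were named from RefSeq GRCm38.p6 (8429 genes) or GENCODE (1 gene); 90 had no name. Exon lengths and shared 100-base windows came from GENCODE. limma 3.58.1 in R 4.3.3 fitted Ly49G+ minus Ly49I+ over all 6 libraries on the log2 values, two-sided, with an intensity trend and Benjamini-Hochberg adjustment over 8520 genes at 0.05. Errors on log2 differences are SE, 3 libraries per population. The steps were tested on simulated data. Alternatives were another scaling, a filter, another added count, no trend, a robust prior, precision weights, the replicate block and leaving out each library. The labels give both populations replicate numbers 1 to 3, and deviations from the population means correlated at 0.371, 0.114 and 0.156 between same-numbered libraries. All were over 0.1, so the numbers were taken to pair the libraries. Yet Ly49I+ replicate 2 correlated more with Ly49G+ replicate 3 (0.359), and Ly49G+ replicate 2 with Ly49I+ replicate 1 stood at 0.115. The cut of 0.1 therefore cannot tell same-numbered libraries from others. The origin of the pairing is not stated.

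Members, classes, lists and the naming rule were chosen with earlier results of these data known. Named are all called Slc genes, the 3 with the highest CPM and the largest uncalled difference of each class, partner pairs, and called genes of the lists. Genes called only with the block, other members given by mean or difference, motifs and promoters were chosen after their values were seen. Some genes the rule names are not reported here. Python 3.11.15, numpy 2.4.6, pandas 2.3.3 and matplotlib 3.10.9 were used.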

Additional observations from a re-analysis of the deposited data

How the results depend on the processing

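With the replicate block, limma called 11 Slc genes, 5 higher and 6 lower in Ly49G+, of 993 genes in all, against 306 without it. By class the block called 5 ion, 3 metal and 2 mitochondrial genes, and of the lists 3 genes of amino acid sensing, 2 of iron, zinc and copper handling, 4 of mitochondrial pores and 5 of ion regulators. It changed no other call among the 44 named genes than the 8 it added. Without the intensity trend 3 Slc genes were called, the metal genes Slc39a13 and Slc30a4 and the mitochondrial gene Slc25a4. The count was then 0 for the class of others, 1 for amino acid sensing and 1 for ion regulators. With only genes of a mean log2 CPM of at least 4, 1 ion regulator was called and Hvcn1 missed the threshold (0.0522).

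Leaving out each library in turn gave 0 to 6 Slc genes called, 0 to 2 higher and 0 to 4 lower in Ly49G+, among 94 to 644 genes in all. By class this was 0 to 1 amino acid, 0 to 3 ion, 0 to 1 metal, 0 to 2 mitochondrial and 0 to 2 other genes, and by list 0 to 2 for amino acid sensing, 0 to 1 for iron, zinc and copper, 0 to 1 for mitochondrial pores and 1 to 5 for ion regulators. The number of Slc genes called was 1 without Ly49G+ replicate 1, 0 without replicate 2 and 2 without replicate 3; it was 6 without Ly49I+ replicate 1, 2 without replicate 2 and 5 without replicate 3. Of the 44 named genes, 4 had values on both sides of 0 when a library was left out: Slc25a24 (-0.08 to 0.05), Slc30a7 (-0.05 to 0.06), Slc39a1 (-0.05 to 0.06) and Slc35e2 (-0.01 to 0.15). None of these 4 was called with or without the block. Slc38a2 fell to -0.00, just below 0, when a library was left out and was not counted among the 4. The other named genes kept their direction under every setting run. Median-of-ratios scaling, 2 added to each count and the robust prior changed no call among the 44 named genes. Transporters below the table's lower limit of 10 CPM were not analysed here, and the causes of the changes between settings were not tested.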
